A study of Mus musculus with 6 samples.

Results

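The immunity-related GTPases are a family of interferon-inducible proteins, and the 7 members described here are the mouse genes Irgm1, Irgm2, Igtp, Iigp1, Ifi47, Tgtp1 and Tgtp2. They were taken by symbol from a table of 24493 genes, and 7 of the 7 were found there. Their transcripts were compared in mouse CD4 T cells labelled as regulatory T (Treg) cells, 3 Ifnar1-SA libraries against 3 wild-type (WT) libraries. Naive CD4 T cells had been taken from the spleen and differentiated in culture, so both genotypes share that treatment. The allele is in Ifnar1, whose protein is part of the receptor for type I interferons. It is known as a knock-in in which a phosphorylated serine that marks the receptor for degradation is replaced by alanine. The labels give no age, sex, culture time or added cytokine, and nothing on whether replicates were separate animals or cultures. P-values therefore measure only the spread between these libraries, part of which may be technical.

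Immunity-related GTPases guard mouse cells against microbes that live in a vacuole. Interferons switch the genes on through STAT factors, which bind the interferon-stimulated response element (ISRE) or the gamma-activated site (GAS) of target promoters. Effector members such as Iigp1, Tgtp1, Tgtp2 and Ifi47 load onto the vacuole membrane and help to break it. Regulatory members, which are Irgm1, Irgm2 and Igtp, sit on the cell's own membranes and keep the effectors inactive there. In mouse CD4 T cells, Irgm1 is known for its part in survival under interferon-gamma.

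Promoter sequences are shown first, because 5 of the members share a short interferon-type block just upstream of their start. RefSeq windows on GRCm38.p6, reaching from 250 bases before to 50 after the annotated start, were at hand for 6 of the 7 members. The ISRE core was searched as GAAA, 2 bases of any kind and GAAA, and the GAS core as TTC, 3 bases of any kind and GAA, each on both strands. The stretches below are 60 bases long and run 5′ to 3′ on the gene's strand, and capitals mark the matched letters. They lie at chr11:48871425-48871484 (minus strand) for Irgm1, chr11:58214873-58214932 (plus strand) for Irgm2 and chr11:58199482-58199541 (plus strand) for Igtp. For Tgtp1 the stretch is chr11:48992304-48992363 and for Tgtp2 chr11:49064263-49064322, both on the minus strand.
Irgm1: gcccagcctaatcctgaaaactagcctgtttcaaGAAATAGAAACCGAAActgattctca
Irgm2: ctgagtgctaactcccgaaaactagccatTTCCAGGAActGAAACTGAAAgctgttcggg
Igtp: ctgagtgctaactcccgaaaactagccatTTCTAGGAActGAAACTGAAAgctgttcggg
Tgtp1: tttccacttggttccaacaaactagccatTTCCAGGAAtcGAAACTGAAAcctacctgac
Tgtp2: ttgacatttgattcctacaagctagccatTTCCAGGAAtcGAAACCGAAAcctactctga

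In Irgm2, Igtp, Tgtp1 and Tgtp2 a GAS core stood just before an ISRE core, which began 64, 34, 77 and 70 bases upstream of the annotated start. Irgm1 held no GAS match in its window and had a pair of overlapping ISRE matches, beginning 30 and 24 bases upstream. Across 32851 RefSeq windows of the same length, 3.44% held the ISRE letters, 8.30% the GAS letters and 0.454% both. The Irgm2 and Igtp stretches were identical at 59 of 60 positions, and those of Tgtp1 and Tgtp2 at 48 of 60. The Ifi47 window held neither set of letters, which says only that they are not in that window. GENCODE M21 lists 5 transcripts of Ifi47, of which 4 start 10.1 to 11.7 kb downstream of the start used here. A match is a description of letters, and no binding was measured.

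**Figure D1:**
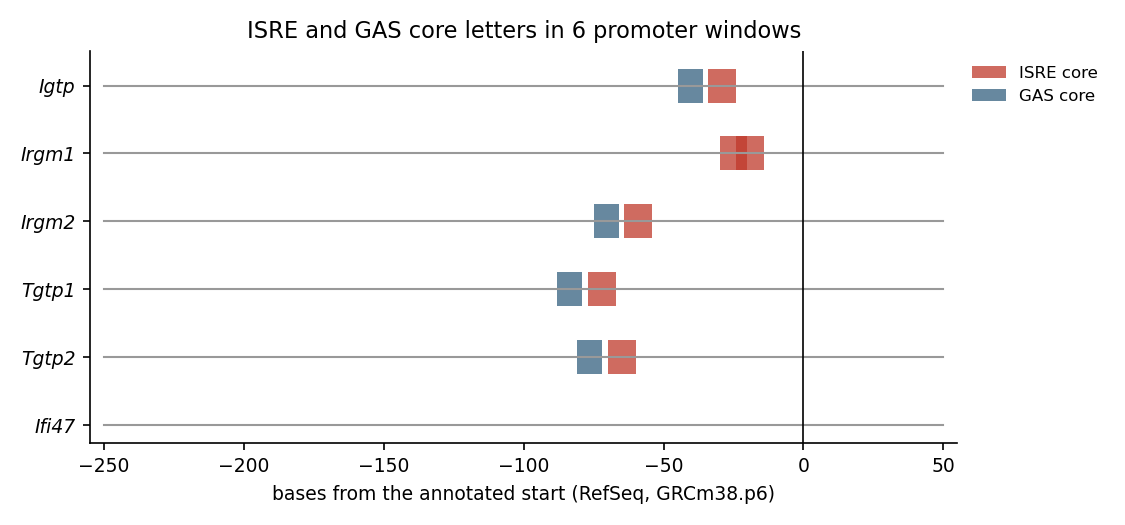
Positions of the ISRE core (red) and GAS core (blue) letters in the RefSeq promoter windows of 6 members, in bases from the annotated start (0), with 1 line per gene. Igtp, Irgm2, Tgtp1 and Tgtp2 have the GAS letters just before the ISRE letters, Irgm1 has 2 overlapping ISRE matches, and Ifi47 has none in this window.

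The genes also lie together. In GENCODE M21 (GRCm38), Irgm1 (chromosome 11, 48861968 to 48871683, minus strand), Tgtp1 (48985327 to 48994172, minus), Tgtp2 (49057194 to 49064206, minus) and Ifi47 (49076587 to 49096974, plus) span 235 kb. Igtp (58199556 to 58207591, plus) and Irgm2 (58199618 to 58222782, plus) form another group on the same chromosome, and Iigp1 is on chromosome 18. All 7 are annotated as protein-coding. The gene models of Igtp and Irgm2 overlap by 7974 bases on the same strand, Tgtp1 overlaps the model Gm12185 by 6900 bases, and Ifi47 lies inside the model of the olfactory receptor gene Olfr56. Sequence shared between genes matters more for Tgtp1 and Tgtp2. Of the distinct 31-base words in the Tgtp1 transcripts 83.2% also occur in Tgtp2, and 89.2% of the Tgtp2 words occur in Tgtp1, so the estimated split of reads between these near-identical copies is uncertain. For Igtp 15.9% of the words occur in another gene and for Irgm2 10.7%, and for Irgm1, Ifi47 and Iigp1 2.20%, 3.32% and 6.90%.

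Expression was given in TPM, a library's share of transcripts after correction for their length, so sequencing depth is unknown. No counting interval can be given, and no library pair held identical values. T cell genes were present in both genotypes, with means of 119 TPM in Ifnar1-SA and 109 TPM in WT for Cd4, 98.0 TPM in Ifnar1-SA and 109 TPM in WT for Cd3e, and 885 TPM in Ifnar1-SA and 769 TPM in WT for Cd3g, whose libraries did not overlap. Transcripts of Foxp3, the defining transcription factor of Treg cells, were scarce, with Ifnar1-SA values of 0.746, 1.82 and 0.759 TPM and WT values of 0.697, 0.295 and 0.276 TPM. The Foxp3 libraries did not overlap between the genotypes, nor did those of Ctla4, with means of 805 TPM in Ifnar1-SA and 575 TPM in WT. Among the genes tested below, 1.97% were higher in Ifnar1-SA without overlap. For Foxp3 the gap was small, between 0.746 TPM in Ifnar1-SA 1 and 0.697 TPM in WT 1. The other Treg markers overlapped, with means of 437 TPM in Ifnar1-SA and 390.04 TPM in WT for Il2ra, 2711 TPM in Ifnar1-SA and 2823 TPM in WT for Tnfrsf18, and 1.03 TPM in Ifnar1-SA and 1.39 TPM in WT for Ikzf2. Activated T cells also express several of these markers, and their part in the GTPase levels was not tested. Ifnar1 itself was at 28.0, 25.3 and 21.8 TPM in Ifnar1-SA and 24.0, 41.9 and 27.3 TPM in WT, and gene-level TPM does not show the point change that the genotype names. WT 2 stood apart with 15.6% of its TPM on small RNA genes, against 10.9% to 12.8% in the other 5 libraries. WT 3 differed from the rest in having the Y-linked Eif2s3y at 0 TPM, against 10.9 to 23.2 TPM in the other 5. Its Kdm5d, Uty and Ddx3y, also Y-linked, were at 0, 0.0212 and 0.110 TPM, and Ddx3y was at 2.46 to 5.59 TPM in the other 5. Xist, the other sex marker looked at, was at 3.37 to 8.08 TPM across the 6 libraries. WT 3 was therefore not a technical repeat of the others, and the part of donor sex in the GTPase levels was not tested. Values below are mean ± SD over 3 libraries per genotype, and a fold is the ratio of mean TPM, Ifnar1-SA over WT.

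None of the 7 GTPases was called different between Ifnar1-SA and WT, although each had a higher mean in Ifnar1-SA. The test was limma on log2(TPM + 1), run on 12141 genes whose mean reached 1 TPM, with Benjamini-Hochberg adjustment over all of them and a threshold of 0.05. All 7 members were among those genes, 0 of the 7 passed, and each had an adjusted p of 0.9997. Over all genes 7 passed, or 0.0577%, and 0.0165% passed with a higher level in Ifnar1-SA. At an unadjusted p under 0.05, 3 members (Irgm1, Ifi47 and Tgtp1) were higher in Ifnar1-SA and 0 lower, where 1.44% of all genes were higher and 1.68% lower. The libraries of the genotypes did not overlap for 2 members, Irgm1 and Ifi47, both higher in Ifnar1-SA, as for 1.97% of all genes. With median-of-ratios, quantile and TMM scaling these were still 2 members, and that share of all genes was 3.66%, 4.55% and 4.69%. The median log2 fold change was 0.48 over the members and −0.06 over all genes tested, and 37.1% of all genes had a higher mean in Ifnar1-SA, against 61.3% after TMM scaling. The directions of the 7 are not independent, since 2 pairs of members share sequence and all share libraries.

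**Figure D2:**
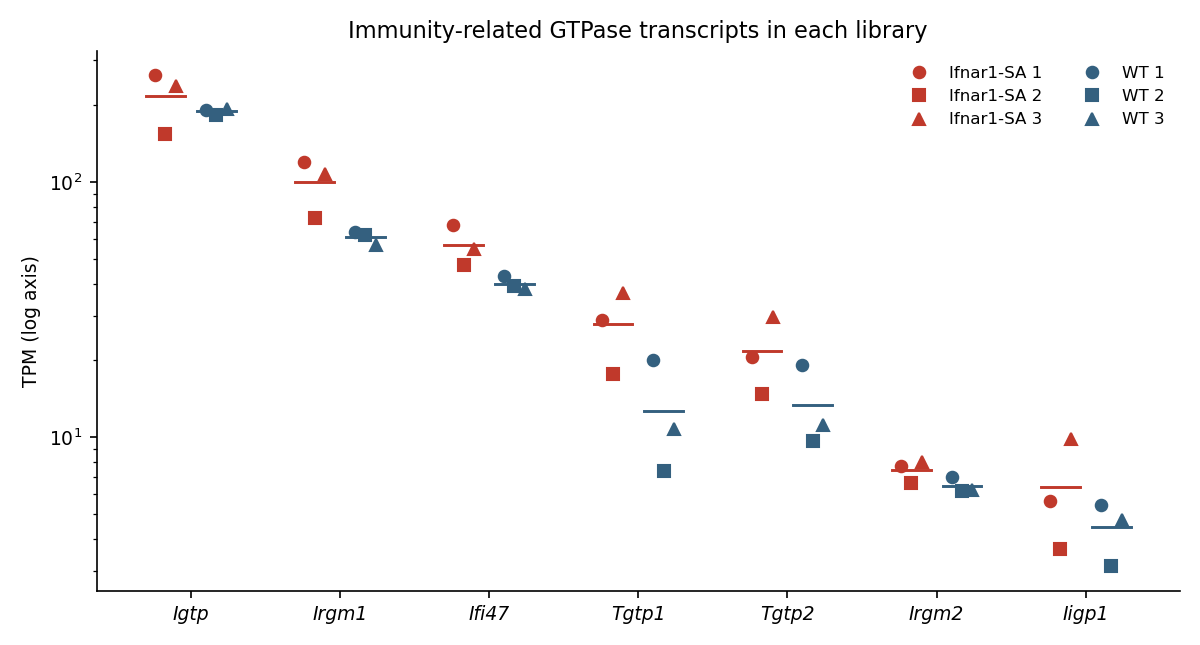
TPM (log axis) of each of the 7 GTPase genes in the 3 Ifnar1-SA libraries (red, left) and the 3 WT libraries (blue, right), with a horizontal bar at each genotype's mean. Irgm1 and Ifi47 are the genes whose libraries do not overlap, and Ifnar1-SA 2 (square) is the lowest Ifnar1-SA library for every gene.

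Among the regulatory members, Irgm1 differed most. It was at 120, 72.4 and 107 TPM in Ifnar1-SA, against 63.6, 62.0 and 56.5 TPM in WT. Every Ifnar1-SA library lay above every WT library, and Ifnar1-SA 2 lay closest to them. The means were 99.8 ± 24.6 TPM in Ifnar1-SA and 60.7 ± 3.71 TPM in WT, a ratio of 1.65. In limma the log2 fold change was 0.68 with a standard error of 0.21 and a 95% interval of 0.17 to 1.18 (limma, unadjusted p = 0.0154, adjusted p = 0.9997).

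Igtp, also called Irgm3, was the most abundant of the family and is the member of the endoplasmic reticulum. It was at 262, 155 and 237 TPM in Ifnar1-SA, against 192, 183 and 194 TPM in WT. Ifnar1-SA 1 and 3 lay above the WT libraries and Ifnar1-SA 2 lay below them, so the genotypes overlapped. The log2 fold change was 0.16 with an interval of −0.35 to 0.68 (limma, unadjusted p = 0.476, adjusted p = 0.9997), and it was −0.012 when Ifnar1-SA 1 and WT 2 were left out together. With single libraries left out, Igtp had 0.39 without Ifnar1-SA 2, 0.09 when Ifnar1-SA 3 was dropped and 0.01 when Ifnar1-SA 1 was.

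Irgm2, the regulatory member known from the Golgi, varied least. Its levels were 7.71, 6.61 and 7.97 TPM in Ifnar1-SA and 6.996, 6.15 and 6.21 TPM in WT. Ifnar1-SA 2 fell inside the WT range. The log2 fold change was 0.18, with an interval of −0.16 to 0.51 (limma, unadjusted p = 0.252, adjusted p = 0.9997). Igtp and Irgm2 have almost the same promoter stretch, shown above, and very unequal levels per length. The Irgm2 stretch, at 58214873 to 58214932, lies inside its GENCODE M21 model, which starts at 58199618. Which start the cells used is not known. Irgm2 was at 0.0294, 0.0428 and 0.0336 of the Igtp level in the Ifnar1-SA libraries and at 0.0363, 0.0336 and 0.0321 in the WT libraries, and these ratios overlapped.

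Among the effector members, Ifi47, also called Irgd, was at 67.8, 47.2 and 54.9 TPM in Ifnar1-SA, against 42.9, 39.0 and 38.1 TPM in WT. No Ifnar1-SA library was as low as a WT library. Its log2 fold change was 0.48 with a standard error of 0.17 and an interval of 0.06 to 0.89 (limma, unadjusted p = 0.0293, adjusted p = 0.9997).

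Tgtp1 and Tgtp2 are copies of the effector known as Irgb6, and Tgtp1 had the largest fold and the largest standard error (0.39) of the 7 members. Tgtp1 was at 28.7, 17.6 and 36.8 TPM in Ifnar1-SA, against 20.1, 7.35 and 10.7 TPM in WT. Ifnar1-SA 2 lay below WT 1, so the genotypes overlapped. The log2 fold change of Tgtp1 was 1.11, with an interval of 0.18 to 2.04 (limma, unadjusted p = 0.0253, adjusted p = 0.9997). Tgtp2 was at 20.7, 14.8 and 29.7 TPM in Ifnar1-SA, against 19.2, 9.67 and 11.2 TPM in WT, and Ifnar1-SA 2 again lay below WT 1. Its log2 fold change was 0.67, with an interval of −0.10 to 1.43 (limma, unadjusted p = 0.0774, adjusted p = 0.9997). For Tgtp2 it was 0.43 without Ifnar1-SA 3 and 0.94 without WT 1. With the copies summed before the fit, which removes the uncertain split, the log2 fold change was 0.93 with an interval of 0.06 to 1.79 (limma, unadjusted p = 0.0392, adjusted p = 0.9997).

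Iigp1, also called Irga6 and the best-studied effector, was the least abundant member. It was at 5.62, 3.64 and 9.85 TPM in Ifnar1-SA and 5.42, 3.12 and 4.75 TPM in WT. Ifnar1-SA 3 was high and the other libraries of both genotypes mixed. Its log2 fold change was 0.38 with an interval of −0.41 to 1.16 (limma, unadjusted p = 0.291, adjusted p = 0.9997), and it was 0.67 without Ifnar1-SA 2, 0.19 without WT 2 and 0.05 when Ifnar1-SA 3 was dropped.

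**Figure D3:**
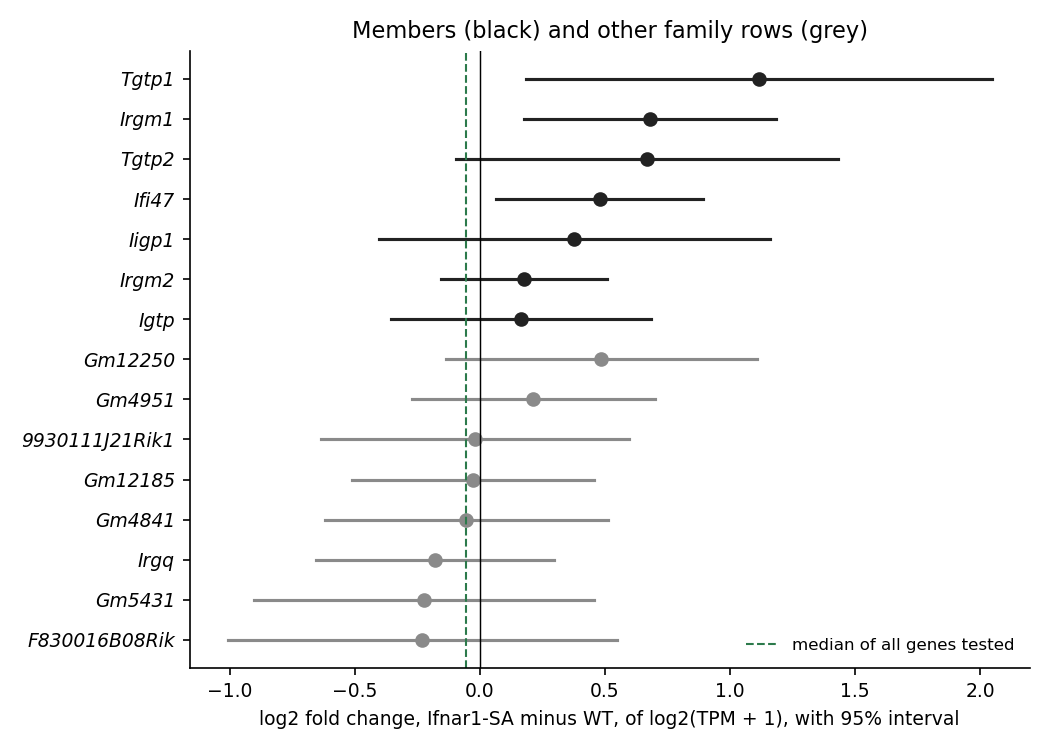
Log2 fold change of log2(TPM + 1), Ifnar1-SA minus WT, with its 95% interval from limma, for the 7 members (black) and 8 other tested rows of the family (grey). The members run from 0.16 (Igtp) to 1.11 (Tgtp1), all to the right of the median of all genes (dashed, −0.06), and the grey rows lie on both sides of it.

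The order of levels was nearly the same in both genotypes. In Ifnar1-SA it ran Igtp, Irgm1, Ifi47, Tgtp1, Tgtp2, Irgm2 and Iigp1, by mean TPM. In WT, Tgtp2 (13.4 ± 5.11 TPM) and Tgtp1 (12.7 ± 6.59 TPM) changed places, and their libraries overlapped in both genotypes. Irgm2 and Iigp1 also overlapped in Ifnar1-SA, where Iigp1 was at 6.37 ± 3.17 TPM, but not in WT. The other neighbours in the order did not overlap. Summed over the 7, the level was 513, 317 and 484 TPM in Ifnar1-SA and 351, 310 and 321 TPM in WT. Igtp made up 51.2%, 48.8% and 49.1% of that sum in Ifnar1-SA and 54.9%, 59.0% and 60.3% in WT, without overlap. This share rests on the same levels as the ratios to Igtp given below and is not a separate result. No background over other genes was computed for it.

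Library by library, the members shared an order that was not only one of genotype. For 7 of the 7 genes the highest 2 of the 6 libraries were Ifnar1-SA 1 and Ifnar1-SA 3, an order seen in 4.04% of all genes tested and looked for after the values were seen. Ifnar1-SA 2 lay inside the WT range for 4 members, above it for Irgm1 and Ifi47 and below it for Igtp. On the scale of log2(TPM + 1) minus each gene's mean, the mean of the 7 was 0.40, −0.15 and 0.54 in the Ifnar1-SA libraries and 0.00071, −0.47 and −0.31 in the WT libraries. WT 2, the library with the highest small RNA share, had the lowest values for Tgtp1, Tgtp2, Iigp1 and Irgm2. The part of that share in these levels was not tested, and TMM (trimmed mean of M-values) scaling of the libraries gave a median of 0.60 over the members, where the median of all genes moved by 0.11 to 0.05.

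**Figure D4:**
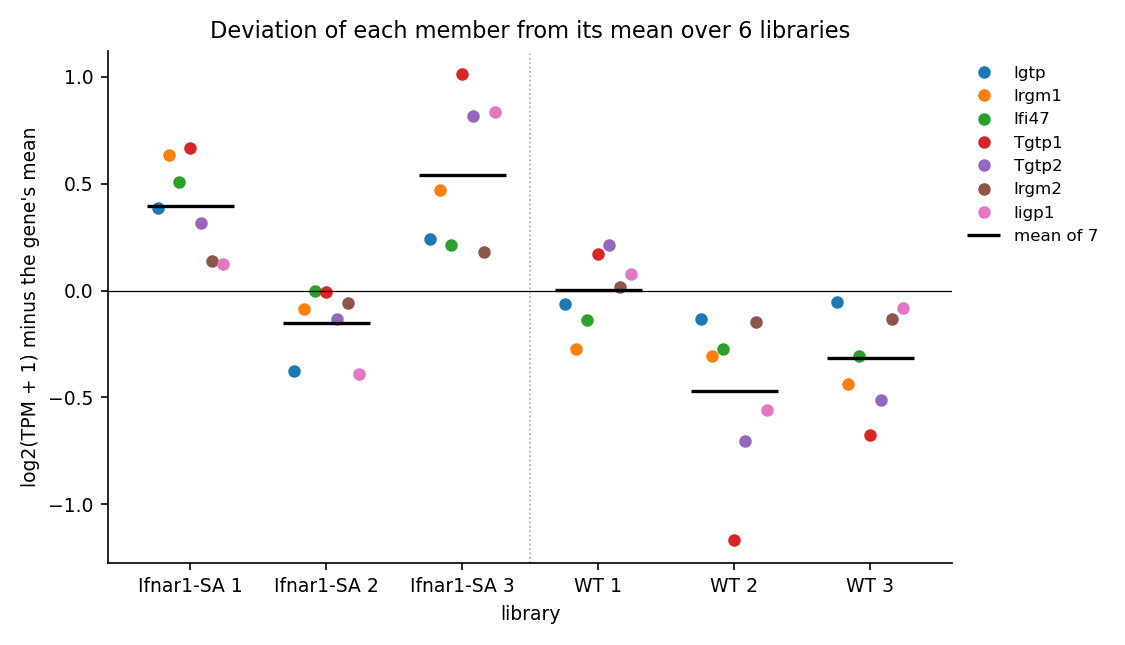
Deviation of each member from its own mean over the 6 libraries, in log2(TPM + 1), with a black bar at the mean of the 7 in each library. Ifnar1-SA 1 and 3 have every member above 0, Ifnar1-SA 2 has none, and WT 2 and WT 3 have every member below 0.

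Single libraries decided how many members had a small unadjusted p. At an unadjusted p under 0.05 there were 1, 4 and 0 members when Ifnar1-SA 1, 2 and 3 were left out in turn. The shares of all genes higher at that p were 1.20%, 1.39% and 0.979%. With WT 1, 2 and 3 left out in turn there were 4, 1 and 1 members, beside 2.51%, 1.22% and 0.847% of all genes. With all libraries there were 3 members, beside 1.44%. The count of members was also 0 when Ifnar1-SA 1 and WT 2 were left out together, beside 1.19% of all genes. Irgm1 was the member with such a p most often, in 5 of the 6 settings that leave out a single library, and its log2 fold change ranged from 0.53 to 0.89 over them. Without Ifnar1-SA 2 the genotypes did not overlap for 7 of the 7 members, where 4.91% of all genes were higher without overlap. For the members this follows from the library order given above, with Ifnar1-SA 1 and 3 highest, and is not a separate result. Without WT 1 they did not overlap for 5 members, where 8.36% of all genes did so. The log2 fold change of Tgtp1 was 1.48 without WT 1 and 0.81 without WT 2. Over these settings 0 members passed the adjusted threshold.

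**Figure D5:**
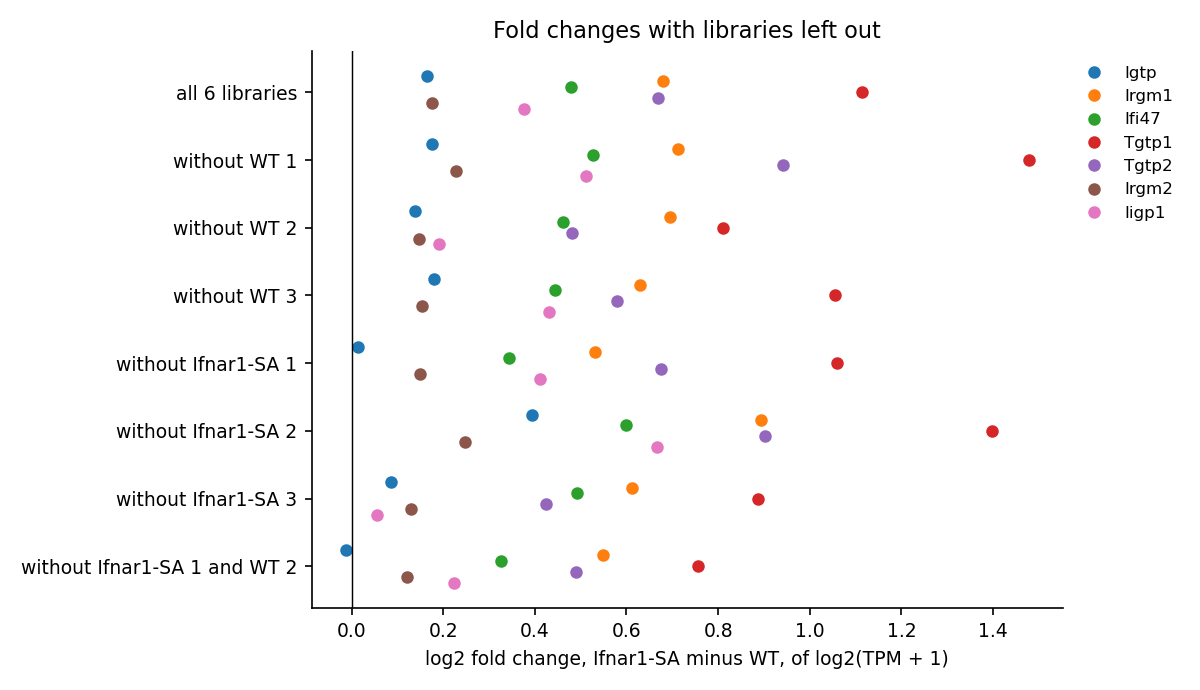
Log2 fold change of log2(TPM + 1), Ifnar1-SA minus WT, of each member (coloured points) with all 6 libraries and with libraries left out as named on the left. Tgtp1 is the rightmost in every setting, from 0.76 to 1.48, and Igtp reaches −0.012 without Ifnar1-SA 1 and WT 2.

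Ratios within a library do not depend on a scaling factor applied to the whole library, and they differed between members. Quantile scaling can change such ratios, and they were not recomputed with it. These ratios were chosen after the values were seen. Irgm1 was at 0.457, 0.469 and 0.451 of the Igtp level in the Ifnar1-SA libraries, against 0.330, 0.339 and 0.292 in the WT libraries. The ratio was nearly the same in Ifnar1-SA 2 as in Ifnar1-SA 1 and 3, unlike the levels themselves. Ifi47 was at 0.258, 0.306 and 0.231 of the Igtp level in Ifnar1-SA and at 0.223, 0.213 and 0.197 in WT, again without overlap. Tgtp1 was at 0.110, 0.114 and 0.155 of the Igtp level in Ifnar1-SA and at 0.104, 0.0402 and 0.0554 in WT. For 3 of the 6 other members the ratio to Igtp was higher in Ifnar1-SA without overlap, where 0.755% of the genes with values above 0 in every library had such a ratio and 3.73% a lower one without overlap. The Tgtp1 ratio rests on the uncertain split between the copies: with Tgtp1 and Tgtp2 summed, an alternative added after seeing the data, the ratio to Igtp was 0.188, 0.210 and 0.280 in Ifnar1-SA and 0.204, 0.0931 and 0.113 in WT, the genotypes overlapped, and the count was 2. Of the 21 ratios between members 7 did not overlap, each with an exact two-sided permutation p of 0.1, the smallest that 3 against 3 libraries allow, and an adjusted p of 0.3 over the 21. These ratios are built from the same 7 genes and are not independent. No share over ratios between other genes was computed, so the count has no background. The ratio of Tgtp1 to Tgtp2 was among the 7 without overlap, at 1.39, 1.19 and 1.24 in Ifnar1-SA and 1.05, 0.761 and 0.958 in WT, and is subject to the uncertain split between these copies.

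Other rows of the family and the genes next to the members did not follow as a group. Of 12 further family symbols 10 were in the table and 8 were tested, with 0 past the adjusted threshold and 0 at an unadjusted p under 0.05 in either direction. Their median log2 fold change was −0.04, with 2 higher and 6 lower. Gm12250, known as Irgb10 and located beside Igtp, had the library order of the members, at 23.0, 12.1 and 21.8 TPM in Ifnar1-SA and 14.9, 10.8 and 13.1 TPM in WT (limma log2 fold change 0.48, unadjusted p = 0.108). Gm4951 was at 3.41 ± 0.839 TPM in Ifnar1-SA and 2.79 ± 0.598 TPM in WT, and Irgq at 1.94 ± 0.237 TPM in Ifnar1-SA and 2.37 ± 0.727 TPM in WT. Of the rows under the filter, Irgc1 was at most 0.0306 TPM in any library. 9930111J21Rik2 was at 0.737, 0.5451 and 0.699 TPM in Ifnar1-SA and 0.5447, 0.253 and 0.234 TPM in WT. Its libraries did not overlap (exact two-sided permutation p = 0.1, the smallest that 3 against 3 libraries allow). Within 100 kb of the 2 gene groups on chromosome 11, 11 genes outside the family were tested, with 0 at an unadjusted p under 0.05, 0 without overlap and a median log2 fold change of −0.04.

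The guanylate-binding proteins are larger interferon-inducible GTPases that act on the same vacuoles. Of 10 tested genes 7 had a higher mean in Ifnar1-SA and 3 a lower one, with a median log2 fold change of 0.17. None passed the adjusted threshold. At an unadjusted p under 0.05, 2 were higher and 0 lower, where 1.44% of all genes were higher. Gbp7 was at 3.40, 3.16 and 3.49 TPM in Ifnar1-SA and 2.58, 2.30 and 2.03 TPM in WT. Its libraries did not overlap, as for 1.97% of all genes. Gbp6 was at 21.4, 12.3 and 21.6 TPM in Ifnar1-SA and 8.13, 12.9 and 11.7 TPM in WT. Gbp10 was at 6.70, 2.63 and 6.58 TPM in Ifnar1-SA and 2.10, 3.82 and 3.31 TPM in WT. Ifnar1-SA 1 and 3 were the highest libraries of these named genes, as for the members, but not of every gene in the list.

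Genes that carry the interferon signal to these promoters had no common direction as a list, with 5 higher and 7 lower means in Ifnar1-SA. Of 12 tested receptor and signalling genes 0 passed the adjusted threshold, 0 were higher and 1 lower at an unadjusted p under 0.05, with a median log2 fold change of −0.09. Stat2, a transcription factor of the type I interferon response, was at 21.7 ± 6.33 TPM in Ifnar1-SA and 13.9 ± 3.87 TPM in WT. Irf9, also in this list, was at 35.4 ± 7.78 TPM in Ifnar1-SA and 24.9 ± 6.82 TPM in WT (limma log2 fold change 0.50, unadjusted p = 0.0889, adjusted p = 0.9997). For Stat2 and Irf9 the highest libraries were Ifnar1-SA 1 and 3, as for the members, and Ifnar1-SA 2 lay inside the WT range. Their lowest library was WT 1, which was not so for any member. Not every gene of the list had Ifnar1-SA 1 and 3 highest. Irf8, a transcription factor of the interferon regulatory family, was the low member, at 59.1, 48.8 and 37.0 TPM in Ifnar1-SA and 74.7, 79.8 and 60.8 TPM in WT (limma log2 fold change −0.58, unadjusted p = 0.0305, adjusted p = 0.9997).

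Interferon transcripts themselves did not have the library order of the GTPases. Ifng, the type II interferon and a strong inducer of the family, was at 8.54, 23.0 and 28.6 TPM in Ifnar1-SA and 28.7, 6.80 and 7.54 TPM in WT. The library with the most Ifng was WT 1, and Ifnar1-SA 1, with high GTPase levels, had little. Ifnb1, a type I interferon, was at 1.58, 0.644 and 1.07 TPM in Ifnar1-SA and 0.546, 1.71 and 1.22 TPM in WT. Transcript levels do not report secreted protein or interferon added to the culture.

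Genes that restrain the signal were tested as well, and 0 of 5 passed the adjusted threshold or had an unadjusted p under 0.05, with a median log2 fold change of −0.10. By mean, 2 were higher in Ifnar1-SA and 3 lower. Usp18, which blocks the type I receptor, was at 76.6, 30.0 and 97.9 TPM in Ifnar1-SA and 8.16, 43.8 and 28.1 TPM in WT. Its means were 68.2 ± 34.7 TPM in Ifnar1-SA and 26.7 ± 17.9 TPM in WT (limma log2 fold change 1.44, unadjusted p = 0.0654, adjusted p = 0.9997). Ifnar1-SA 1 and 3 were its highest libraries, as for the members. Socs3, an inhibitor of JAK kinases, was at 32.4 ± 2.30 TPM in Ifnar1-SA and 37.1 ± 2.32 TPM in WT, without overlap, and the phosphatase gene Ptpn2 at 161 ± 16.6 TPM in Ifnar1-SA and 188 ± 19.7 TPM in WT.

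The autophagy conjugation machinery is needed in mouse cells to place GTPases on the vacuole. Of its 11 genes 0 passed the adjusted threshold and 0 had an unadjusted p under 0.05, with a median log2 fold change of −0.05. Map1lc3a and Gabarapl1, which encode ubiquitin-like proteins coupled to membranes, had libraries without overlap. Gabarapl1 was at 35.9 ± 0.938 TPM in Ifnar1-SA and 43.5 ± 3.20 TPM in WT, and Map1lc3a at 26.2 ± 4.81 TPM in Ifnar1-SA and 32.9 ± 2.10 TPM in WT, and 3.80% of all genes were lower without overlap. Atg12, another such protein, was at 9.92 ± 1.32 TPM in Ifnar1-SA and 12.4 ± 2.74 TPM in WT. Among 6 ubiquitin and autophagy adaptors 0 passed the adjusted threshold and 0 had an unadjusted p under 0.05, with a median log2 fold change of −0.03. The ubiquitin ligase genes Traf6 and Trim21 were at 8.07 ± 2.18 and 4.53 ± 0.653 TPM in Ifnar1-SA, against 11.8 ± 2.93 and 3.48 ± 0.498 TPM in WT. Sqstm1, the adaptor p62, was at 143 ± 28.9 TPM in Ifnar1-SA and 165 ± 31.97 TPM in WT.

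Genes whose library profile was most like that of the family were sought among 11167 tested genes, with the 7 members and all predicted gene models (symbols of Gm with digits, or ending in Rik with or without a number) left out. Likeness was the root mean square distance, over the 6 libraries, between a gene's log2(TPM + 1) and the mean of the 7 members, each centred on its mean. The nearest were Ptgr1 (distance 0.0580), a prostaglandin reductase gene, Tapbp (0.0703), which encodes tapasin of MHC class I peptide loading, and Nmi (0.0746), an interferon-inducible partner of STAT factors. Psme2 (0.121), a subunit of the interferon-inducible proteasome activator, Trim12a (0.123), a tripartite motif gene, and Furin (0.126), a proprotein convertase gene, followed. The median distance of all candidates was 0.436, and the members themselves lay at 0.174 (Irgm1) to 0.400 (Tgtp1). Tapbp was at 140, 92.7 and 145 TPM in Ifnar1-SA and 100, 81.0 and 77.7 TPM in WT.

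Mouse macrophages and dendritic cells also express these GTPases, and their markers were looked at for that reason. Of 10 markers 5 (Csf1r, Adgre1, Itgax, Cd14 and Fcgr1) were under 1 TPM in every library, and 0 had libraries without overlap. The summed level of the list was 1038 to 1192 TPM in Ifnar1-SA and 1112 to 1353 TPM in WT, nearly all from Cst3 and H2-Ab1. B cell markers summed to 3.48 to 8.95 TPM in Ifnar1-SA and 4.02 to 11.3 TPM in WT. Markers of CD8 T and NK cells summed to 1677 to 2496 TPM in Ifnar1-SA and 914 to 2684 TPM in WT, nearly all from Nkg7, with Klrd1 and Ncr1 under 1 TPM in every library. In RNA from whole cultures, a different share of expressing cells and a different amount of RNA per cell cannot be told apart.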

How the data were processed

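RNA libraries of cells labelled Treg, 3 Ifnar1-SA and 3 WT, were compared. The deposited values are TPM per gene for the 6 libraries. Salmon and mm10/GRCm38 are named in the submitters' processing notes. The version of Salmon, its annotation and the summing to genes were not given in the sources used here. Depth cannot be had from TPM, and abundant genes lower the values of all others in a library.

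Genes whose mean reached 1 TPM were tested as log2(TPM + 1) with limma 3.58.1 (R 4.3.3) with an intensity trend, two-sided, without a replicate block. This scale understates changes of low genes. Benjamini-Hochberg adjustment ran over all genes tested. The members and lists were chosen with earlier results of these data known. All members are named, and from each list the members past the threshold or otherwise the 3 of smallest p. The other tested family rows stand in the plot only. A gene of the signalling list that this rule names is not reported here. Irgc1, 9930111J21Rik2, Irf9, Ifnar1 and the interferon genes are named outside this rule, after their values were seen. TMM factors were computed on the TPM values, for scaling only. Alternatives were other pseudocounts (0.1, 0.5), filters (none, 5 TPM), scalings, variance models, a replicate block, left-out libraries and summed Tgtp1 and Tgtp2. Deviations of same-numbered libraries correlated weakly over all genes tested, which cannot exclude a pairing. The procedure was tested on simulated data. Words of 31 bases were compared between GENCODE M21 transcripts in the same sense. Tables and plots were made in Python 3.11.15 with matplotlib 3.10.9.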

Additional observations from a re-analysis of the deposited data

How the results depend on the processing

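Over 19 alternative settings 0 members passed the adjusted threshold (limma), with a lowest adjusted p of 0.418, and the median log2 fold change of the members lay between 0.33 and 0.67. Of 132 single-member values 131 kept a higher mean in Ifnar1-SA, and Igtp turned to −0.012 with the pair Ifnar1-SA 1 and WT 2 removed; the cause was not tested. Members with an unadjusted p under 0.05 were 3 in every setting that kept all libraries except 2 with median-of-ratios scaling. In those settings 0.950% to 2.52% of all genes were higher at that p. The number of all genes called, 7, was 15 and 14 with pseudocounts of 0.1 and 0.5, 12 with robust empirical Bayes, 12 with array weights, 1 with a mean of at least 5 TPM, 0 without that pair, and 15 to 28 without single libraries. The replicate block called 0 of all genes and left the median of the members at 0.48. It lowered the standard error of each member, for Tgtp1 from 0.39 to 0.26 (limma, unadjusted p = 0.00998, adjusted p = 0.9995). Correlations of the deviations of same-numbered libraries were −0.11, −0.11 and 0.15, and Ifnar1-SA 3 alone correlated best with its own number. With 3 libraries per genotype, these values cannot tell whether the numbers pair the libraries. TMM scaling put 61.3% of all genes higher in Ifnar1-SA, against 37.1% as deposited, and at an unadjusted p under 0.05 it put 306 higher and 198 lower, against 175 and 204. With unknown depth, no counting error could be set beside Iigp1 or Irgm2, the lowest members.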
